A study of Citrus sinensis with 2 samples.

Results

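MiR164, miR319 and miR396 are 3 conserved plant miRNAs known for control of leaf growth, and their read-counts were compared here between Mg-deficient and Mg-sufficient leaves of sweet orange (Citrus sinensis). They were chosen by name, as the entries miR164, miR319 and miR396 of a deposited table of known miRNAs, and all 3 were found among its 1215 names. The series holds 2 small RNA libraries from fully expanded leaves of the cultivar Xuegan. Mg-deficient seedlings were given a nutrient solution with 0 mM MgSO4, with sodium sulfate in its place, and Mg-sufficient seedlings the same solution with 1 mM MgSO4. Seedlings of both groups were potted at 5 weeks of age, and the 16 weeks of treatment began 10 weeks later. Leaves of 5 plants were pooled for each library. The labels name leaves as the tissue, while the RNA extraction text speaks once of roots, and a table of miRNA names holds no leaf marker by which this could be checked.

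A plant miRNA guides the cleavage or the translational repression of mRNAs to which it pairs almost along its whole length, and many conserved miRNAs act on a family of transcription factors. MiR164 acts on mRNAs of NAC domain factors, among them the CUC genes of Arabidopsis, which set organ boundaries and leaf margins, and ORE1, a promoter of leaf senescence there. MiR319 acts on mRNAs of TCP factors, which end cell division in the growing leaf. MiR396 acts on mRNAs of growth-regulating factors (GRF), which keep leaf cells dividing. No mRNA was measured in the deposited files, so nothing is reported here on these targets.

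The sequences that the study lists for the 3 names are shown first, since the name of a miRNA stands for its sequence. They run 5′ to 3′, with the seed, which is bases 2 to 8, in capitals, and miR159 is added as the closest relative of miR319.
miR164: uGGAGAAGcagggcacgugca
miR319: aUCCAACGaagcaggagcugu
miR396: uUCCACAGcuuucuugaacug
miR159: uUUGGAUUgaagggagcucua
All 3 were 21 nt long, as were 34.9% of the 690 listed sequences. MiR164 and miR396 began with U, the first base of 49.7% of the listed sequences, whereas the sequence under miR319 began with A, as did 30.1%. None of the 3 shared its seed, at bases 2 to 8, with another listed name, and 604 of the 690 listed names had a seed of their own. At other positions the seed of miR164 occurred in 2 other listed names, and those of miR319 and miR396 in none. No other listed sequence matched one of the 3 over 17 nt or more with 2 or fewer mismatches.

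The sequence under the name miR319 did not resemble that of miR159. In plants the mature miRNAs miR319 and miR159 are known to be alike along most of their length. Here the best ungapped alignment of the listed miR319 and miR159 covered 16 nt with 7 mismatches, and their longest shared run was 6 nt. The listed miR319 shared a longer run, of 8 nt, with miR164. The label of a TCP-targeting miRNA therefore rests on the name alone, and values are given below for the name miR319. Whether reads of the TCP-targeting miRNA were counted under another name, such as miR159, was not tested. In the RefSeq annotation of the sweet orange assembly DVS_A1.0, used for gene names only, the one gene that carries the synonym MIR319 has the symbol MIR159D. The same annotation names MIR164A, MIR164B and MIR164C for miR164, and MIR396A, MIR396B, MIR396D, MIR396E and MIR396F for miR396. MIR396F and MIR396B follow each other in its list of genes, but their coordinates were not compared. The deposited count of a name does not separate the genes of a family.

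The Mg-deficient library held 20328011 clean reads and the Mg-sufficient library 22218850. Counts summed over the known miRNA names were 3003648 in the Mg-deficient and 5097686 in the Mg-sufficient library. They equal 14.8% and 22.9% of the clean reads in number, but are not shares of reads. For libraries of these totals the paper prints fewer miRNA reads than these sums, by a wider margin for the Mg-deficient total. The shares of known miRNA counts and the scaling to summed miRNA counts below rest on these sums. The 3 names together made up 0.393% of these counts in the Mg-deficient library and 1.20% in the Mg-sufficient library. The normalized read-count is given as reads in 1000000 clean reads (RPM), the unit the study calls TPM. Clean reads include other RNA classes. For the Mg-deficient total the paper prints a larger share of rRNA and a smaller genome-mapped share than for the Mg-sufficient total. How far this moves RPM between the libraries was not tested. With 1 library a treatment, no difference could be set against a spread between replicates. All intervals are 95% intervals that cover counting error only, and PCR copies of a molecule are counted as if they were separate. The p-value is 1 tail of the exact Audic-Claverie formula of the study's methods, which compares the reads of both libraries, not the treatments. A name was called when it had at least 10 RPM in at least 1 library, a p-value under 0.01 and a log2 ratio (Mg-deficient over Mg-sufficient) beyond 1.5 in either direction.

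The 3 names kept their order of level, with miR164 the highest, miR396 next and the name miR319 the lowest in both libraries, and no interval of one overlapped that of another. Only miR164 was called, and it was lower in the Mg-deficient library. MiR396 had a slightly lower value in the Mg-deficient library at this scaling and was not called. The name miR319 had a higher value in the Mg-deficient library, from few reads, and did not reach the abundance filter.

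**Figure D1:**
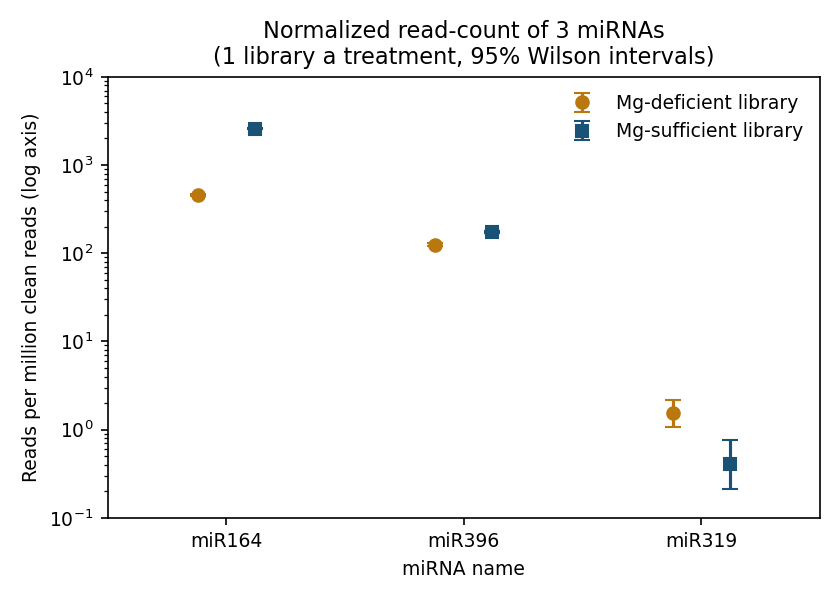
Normalized read-count of miR164, miR396 and miR319 (RPM, log axis) in the Mg-deficient library (circles) and the Mg-sufficient library (squares), with 95% Wilson intervals. MiR164 stood at 454 RPM in the Mg-deficient and 2581 RPM in the Mg-sufficient library, miR396 at 124 and 174 RPM, and miR319 at 1.52 and 0.405 RPM.

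MiR164, the regulator of NAC factors, was counted 9234 times in the Mg-deficient library, against 57341 times in the Mg-sufficient library. This was 454 RPM (445 to 464) in the Mg-deficient library, against 2581 RPM (2560 to 2602) in the Mg-sufficient library. The intervals lay far apart. MiR164 was thus 5.68-fold lower (5.56 to 5.81), with a log2 ratio of -2.51 (-2.54 to -2.47), and the log10 of its p in the one-sided exact test was -7503. That p leaves out variation between plants, and with edgeR's exact test and a biological coefficient of variation set to 0.4 the log10 of p was -2.36, just past the threshold of 0.01. It ranked 36th of 1215 names by count in the Mg-deficient library and 10th in the Mg-sufficient library. Its share of all known miRNA counts was 0.307% in the Mg-deficient and 1.12% in the Mg-sufficient library.

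A call as such was common between these libraries. Among the 324 names that passed the filter, 53.7% were called, 25.6% as lower and 28.1% as higher in the Mg-deficient library, and 72 of the 324 had a lower log2 ratio than miR164. When libraries were scaled to their summed miRNA counts, the 91 higher and 83 lower calls became 114 and 65. Of the 174 names called, 155 had under 10 RPM in 1 of the libraries, whereas miR164 was well above it in both. At least 10 RPM in both libraries was found for 149 names, of which 5.37%, or 8 names, were called lower and 7.38%, or 11 names, were called higher. This condition itself removes names that are near 0 in 1 library, so the smaller shares follow from it and do not set miR164 apart.

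The 8 names included miR6143 and miR5369, which were named after their values were seen and had lower log2 ratios than miR164. MiR6143 had 23.3 RPM in the Mg-deficient and 428 RPM in the Mg-sufficient library, and miR5369 had 42.7 and 746 RPM. MiR164 was the most abundant of these 3 names in both libraries. Among the other 5 were miR156, which acts on SPL factors that set the passage from juvenile to adult leaves, and miR2118, a regulator of NBS-LRR disease resistance genes. Their log2 ratios were -1.92 for miR156 and -1.69 for miR2118. The number called lower moved with the library size, to 5 names with TMM and with DESeq2's size factors, to 11 with the clean-read totals exchanged and to 14 with the summed counts without the 5 most abundant names. With the summed miRNA counts it was 3, namely miR164, miR5369 and miR6143.

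MiR396, the regulator of GRF factors, had 2527 counts in the Mg-deficient and 3868 counts in the Mg-sufficient library. It stood at 124 RPM (120 to 129) in the Mg-deficient library, against 174 RPM (169 to 180) in the Mg-sufficient library. The value in the Mg-deficient library was 1.40-fold lower (1.33 to 1.47), a log2 ratio of -0.49 (-0.56 to -0.41). The difference exceeded the counting error (one-sided exact p = 1.33e-40) but lay within the fold threshold. A p-value under 0.01 was found for 91% of the names that passed the filter, so that a difference beyond counting error was common to nearly all of them. By count miR396 ranked 72nd in the Mg-deficient library and 49th in the Mg-sufficient library.

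The direction of miR396 depended on the library size used. Its share of all known miRNA counts was 0.0841% in the Mg-deficient and 0.0759% in the Mg-sufficient library, and when libraries were scaled to their summed miRNA counts its log2 ratio was 0.15 (0.08 to 0.22). With edgeR's TMM normalization it was -0.15, and with DESeq2's size factors -0.12. It was -0.74 with the clean-read totals exchanged and -0.81 with the summed counts without the 5 most abundant names. Only the summed counts of all known names put it above 0. The median log2 ratio of the 324 names that passed the filter was -0.30 with the clean-read totals. Log2 ratios shift by 0.63 with the summed miRNA counts, by 0.34 with TMM and by 0.37 with DESeq2's size factors. Relative to that median, miR396 stood at -0.19, miR164 at -2.21 and the name miR319 at 2.21. These distances stay the same only while 1 shift is applied to the same 324 values. The filter and the value for a count of 0 were also applied anew at each library size. The median was then 0.45 with the summed miRNA counts, 0.13 with TMM and 0.17 with DESeq2's size factors. MiR164 was lower in the Mg-deficient library with each of the 5 other library sizes tried, with log2 ratios between -2.83 and -1.87.

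**Figure D2:**
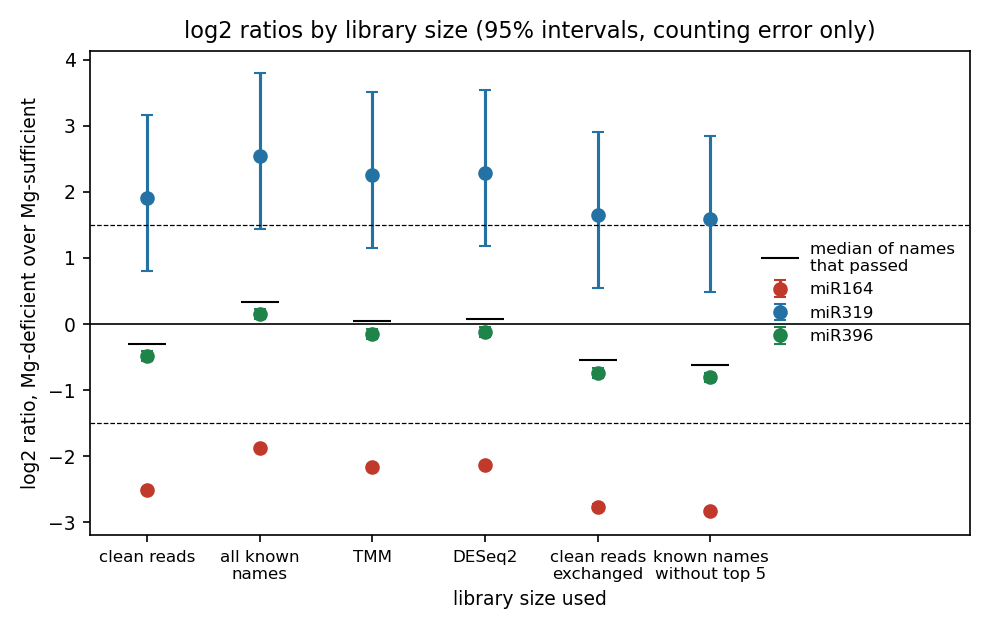
The log2 ratio, Mg-deficient over Mg-sufficient (y axis), of miR164, miR319 and miR396 for the clean-read totals and 5 other library sizes (x axis), with 95% intervals for counting error. The horizontal ticks give the median of the 324 names that passed the filter, moved by the same shift as the 3 names. The dashed lines give a log2 ratio of 1.5 in either direction. MiR164 stayed below the lower line, between -2.83 and -1.87, while miR396 ran just under the median and changed its sign with the summed miRNA counts only.

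The name miR319 was counted 31 times in the Mg-deficient library and 9 times in the Mg-sufficient library. These are 1.52 RPM (1.07 to 2.16) in the Mg-deficient library, against 0.405 RPM (0.213 to 0.770) in the Mg-sufficient library. The intervals did not overlap, and the value was 3.76-fold that of the Mg-sufficient library, with an interval from 1.75 to 8.99. The log2 ratio of 1.91 (0.81 to 3.17; one-sided exact p = 0.000119) lay beyond the threshold, but both levels were under 10 RPM, which is about 203 counts in the Mg-deficient and 222 counts in the Mg-sufficient library. The name was therefore not called, and would be if the filter were left out. Without the filter, 18.6% of all 1215 names were called higher in the Mg-deficient library, and of the 891 names below the filter 15.2% were. By count the name miR319 ranked 438th in the Mg-deficient library and 748th in the Mg-sufficient library, where the median name of the table had 10 counts and 20 counts.

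Ratios between names of the same library do not depend on the library size. MiR164 had 3.65 reads for each read of miR396 in the Mg-deficient library (3.50 to 3.82), against 14.8 in the Mg-sufficient library (14.3 to 15.3). The ratio of miR164 to miR396 was thus 4.06-fold lower in the Mg-deficient library (3.84 to 4.29). Against miR159, the regulator of MYB factors of the GAMYB type, miR164 had 2.53 reads for each read in the Mg-deficient library and 10.8 in the Mg-sufficient library. The ratio of miR159 to miR396 was nearly the same in both libraries, at 1.44 in the Mg-deficient (1.37 to 1.52) and 1.37 in the Mg-sufficient library (1.31 to 1.43), and the fold between these ratios was 1.05 with an interval from 0.987 to 1.13. The ratio of miR159 to the name miR319 was 118 in the Mg-deficient library (82.7 to 173) and 588 in the Mg-sufficient library (310 to 1287), which leaves a wide interval for the fold between them, from 0.0951 to 0.421.

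The 3 names were also set beside a list of 12 other names of miRNAs that act in leaf initiation, polarity, growth or ageing, of which 11 passed the abundance filter. Of these 11, miR156 alone was called, as lower, and it was not called with the summed miRNA counts, where its log2 ratio was -1.28. Over the 324 names that passed, 25.6% were called lower. Over the 149 names with at least 10 RPM in both libraries, as all of the 11 had, 5.37% were. With the clean-read totals, the log2 ratio was below 0 for 10 of the 11, against 191 of the 324 names that passed and 103 of the 149. The median of the 11 was -0.78, against -0.30 over the 324 and -0.29 over the 149. With the summed miRNA counts the median of the 11 was -0.15, against 0.45 over all names that passed at that setting. MiR160, which acts on auxin response factors, was the one above 0, with 466 RPM in the Mg-deficient and 265 RPM in the Mg-sufficient library and a log2 ratio of 0.82. The auxin-related names miR167, miR390 and miR393 had log2 ratios of -0.89, -0.78 and -0.63. MiR165 and miR166, which act on HD-ZIP III factors of the upper leaf side, had -0.79 and -0.63. MiR171, which acts on GRAS factors, had -1.46, just inside the threshold, and was past it with the clean-read totals exchanged (-1.72) and with the summed counts without the 5 most abundant names (-1.78). MiR157, a relative of miR156, had -1.20, and miR172, which acts on AP2-type factors, had -0.37. MiR394, which acts on an F-box gene of leaf shape, had 11 counts in the Mg-deficient and 19 counts in the Mg-sufficient library and did not pass the filter.

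MiR164 had a lower log2 ratio than the -1.92 of miR156 (-1.93 to -1.91), the lowest of the 12 names, with no overlap of their intervals. In a wider list of 25 names of conserved miRNAs no value was lower than that of miR164, but the intervals of miR399 (-2.77 to -0.18) and miR2111 (-2.48 to -1.26), both below the filter, overlapped its own, so that its place among them is not resolved. Of the 12 names, 3 lay above miR396 and 9 below it. Its interval overlapped those of miR159 (-0.47 to -0.35), miR393 (-0.75 to -0.50) and miR394 (-1.88 to 0.48), so that its place among them is not resolved by the counts. The name miR319 had a higher log2 ratio than all 12 names, but its interval overlapped that of miR160 (0.77 to 0.86). In the wider list, miR395, a regulator of sulfate assimilation, lay above the name miR319, while the intervals of miR397 (0.70 to 0.87) and miR398 (1.56 to 1.63), regulators of copper proteins, overlapped its own, so that 31 and 9 counts do not resolve the order. In that list 21 names passed the filter, with a median log2 ratio of -0.63. MiR395 and miR398 were called higher and miR156 and miR535 lower, which is 4 of 21, against 53.7% called over the 324. The 53.7% is not a like measure for this list, since it rests largely on names under 10 RPM in 1 library. At least 10 RPM in both libraries was found for 20 names of the list, and over all 149 such names 12.8% were called. Called among the 20 were miR156, miR535 and miR398. MiR395 had 2.88 RPM in the Mg-sufficient library and was not among the 20. Of the 4 called names of the list, miR395 was called with each library size tried.

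**Figure D3:**
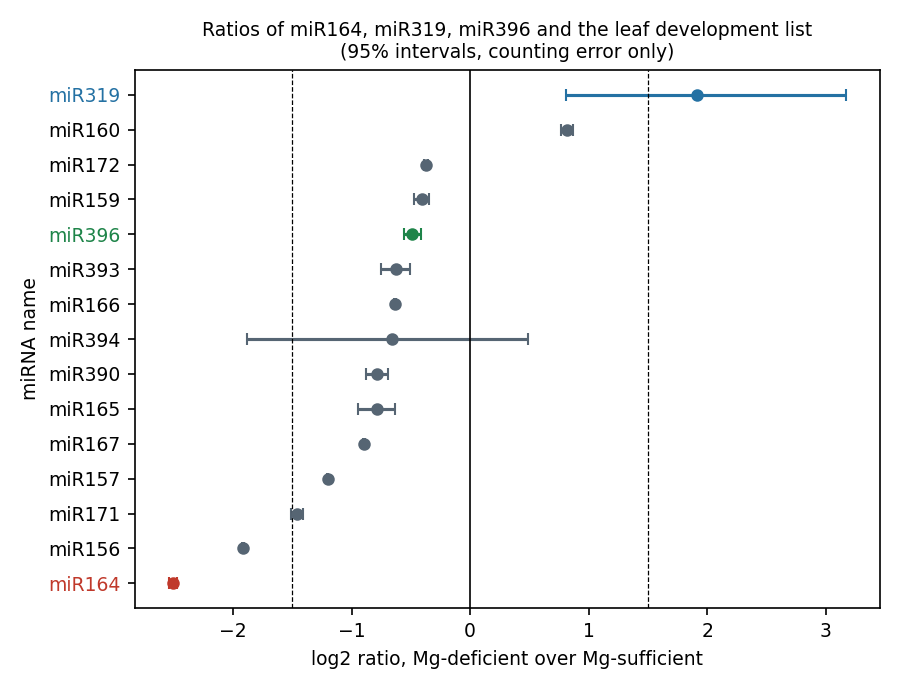
The log2 ratio, Mg-deficient over Mg-sufficient (x axis), for miR319, miR396, miR164 and the 12 names of the leaf development list, from the highest to the lowest, with 95% intervals for counting error and dashed lines at the threshold of 1.5. MiR164 lies below the other names shown at -2.51, miR396 lies beside miR159 at -0.49, and miR319 lies at 1.91 with a wide interval.

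The names whose values were most like those of each of the 3 were found by the distance between the log2 RPM of both libraries, over the 759 other names with counts in both. For miR164 these were miR2118, miR894 and miR1446, at distances of 0.83, 1.00 and 1.16. They had nearly the same level as miR164 in the Mg-deficient library, from 449 to 524 RPM, but 1172 to 1453 RPM in the Mg-sufficient library. For miR396 they were miR1159, miR5657 and miR5719, at distances of 0.19 to 0.25, with log2 ratios from -0.37 to -0.21. For the name miR319 they were miR6180, miR5793 and miR2663, at distances of 0.18 to 0.34, each with 28 to 38 counts in the Mg-deficient and 8 to 10 counts in the Mg-sufficient library. A distance over 2 libraries describes these values and says nothing of shared control.

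**Figure D4:**
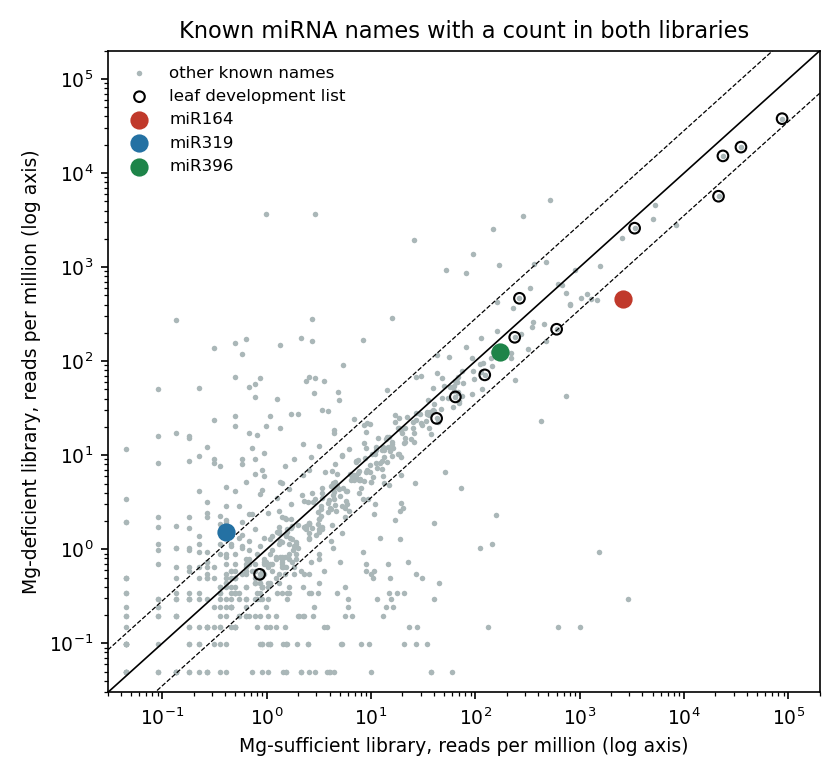
RPM in the Mg-deficient library (y axis) against RPM in the Mg-sufficient library (x axis), both on log axes, for the 760 known names with a count in both libraries. The solid line marks equal values and the dashed lines a log2 ratio of 1.5 in either direction; miR164 lies below the band at 454 and 2581 RPM, while miR396 lies inside the band and miR319 among the names of few reads.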

How the data were processed

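Small RNA was sequenced from 1 library of Mg-deficient and 1 library of Mg-sufficient leaves. The authors mapped clean reads to the JGI version 1.1 genome, removed other RNA classes, matched the rest to miRBase 21 with up to 2 mismatches, and deposited raw read counts per known miRNA name. How a read that fits more than 1 name was counted is not given in the sources used here. The authors also deposited values scaled to 1000000 clean reads (RPM), which equal the counts divided by the deposited clean-read totals within 0.001 for all 1215 names. A deposited comparison table holds the authors' own log2 ratio and p-value, which were not used. The paper prints its library statistics, clean-read totals included, under the opposite treatments. The deposited assignment was used, and exchanged totals were tried as an alternative. This does not test whether the libraries themselves were exchanged, which would turn the sign of each log2 ratio.

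A count of 0 was set to 0.01 RPM in log2 ratios. Intervals were Wilson for RPM and shares, exact Clopper-Pearson for ratios of 2 counts, and normal on the log scale for folds between such ratios. EdgeR's quasi-likelihood test could not be fitted with 1 library a treatment. The alternatives were 5 other library sizes, 1 count added, 3 other abundance filters, 2 other fold thresholds, 4 other tests (Fisher's exact test, Benjamini-Hochberg adjustment, an exact test of edgeR, with the biological coefficient of variation set to 0.2 or 0.4) and counts summed over near-identical names. The script was tested on simulated counts that held counting error only. That test checks the script and says nothing of variation between plants.

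Named by rule were the 3 miRNAs, the leaf development list and the 3 nearest names to each. Names alike in sequence were to be named too, but none met the limits used. MiR6143, miR5369 and miR5181 were named after their values were seen. MiR395, miR397, miR398, miR399, miR535 and miR2111 were named from the wider conserved list, by their values or calls. The miRNAs and lists were chosen with earlier results of these data known. The mature sequences come from the study's list of known miRNAs. Target genes were not analysed here, since no protein or transcript sequences were used. Python 3.11.15, numpy 2.4.6, scipy 1.17.1, pandas 2.3.3, matplotlib 3.10.9, R 4.3.3, edgeR 4.0.16 and DESeq2 1.42.0 were used.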

Additional observations from a re-analysis of the deposited data

How the results depend on the processing

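MiR164 was called as lower in all 16 alternatives tried, which covered 5 other library sizes. Many of the 16 could not have undone this call, such as looser fold thresholds, filters that it clears and sums over near-identical names. The library sizes and the edgeR settings were those that could. The alternatives were not combined, and the edgeR test was run with the clean-read totals only. With the summed miRNA counts, where the log2 ratio of miR164 was -1.87, that test was not run. With edgeR's exact test at a biological coefficient of variation of 0.4, an assumed value, the log10 of p was -2.36 for miR164, -1.08 for the name miR319 and -0.25 for miR396. MiR396 was called in none of its 16 alternatives, and its log2 ratio turned from -0.49 to 0.15 when libraries were scaled to their summed miRNA counts. With the other library sizes it stayed below 0. The name miR319 kept its direction in all 16 and was called in 1 of them, without the abundance filter, with a log2 ratio of 1.91; this choice was made after seeing the data. The list medians followed the library size, as did the median over all names that passed the filter. That of the conserved list, -0.63 with the clean-read totals, was 0.0030 with the summed miRNA counts, -0.29 with TMM, -0.26 with DESeq2's size factors, -0.89 with the totals exchanged and -0.95 without the 5 most abundant names. That of the leaf development list, -0.78, was -0.15, -0.45, -0.42, -1.04 and -1.10 under the same settings. The calls over all names, 91 higher and 83 lower, were 226 and 308 without the filter, 11 and 8 with 10 RPM in both libraries, 49 and 23 with 50 RPM in at least 1, and 129 lower with a linear ratio of 1.5. Summing near-identical names changed none of the 3, since none had such a name among the 690 listed sequences. Counted names without a listed sequence could not be compared. The ratio of miR164 to miR396 moved by less than counting error with 1 count added. Depth limited the name miR319, at 31 and 9 counts. No paired analysis was possible because each treatment has 1 library.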

Other observations

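The name miR5181, chosen after its values were seen, overlaps in sequence with miR159, the relative of miR319. The seed of miR159 occurs at some position in 7 other listed names, of which only miR5181 is shown. The listed 18 nt of miR5181 hold a run of 15 nt that is also in miR159, shown here in capitals.
miR5181: cuuUUUGGAUUGAAGGGA
miR159: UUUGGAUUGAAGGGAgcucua
MiR5181 had 309 counts in the Mg-deficient and 4 counts in the Mg-sufficient library, a log2 ratio of 6.40 (95% interval, 5.03 to 8.28). MiR159 had 3647 counts in the Mg-deficient and 5295 counts in the Mg-sufficient library, a log2 ratio of -0.41 (-0.47 to -0.35). The sum of both names had a log2 ratio of -0.29 (-0.35 to -0.23), within the fold threshold. Whether reads are shared between these names was not tested.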
